A study of Oryctolagus cuniculus with 12 samples.

Results

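The small leucine-rich proteoglycans are secreted matrix proteins whose leucine-rich repeats bind collagen, and several of them carry sulfated sugar chains. In the corneal stroma they sit on the thin collagen fibrils, and the keratan sulfate members among them are known for keeping fibril width and spacing even, which a clear cornea needs. The genes described here were grouped by sugar chain. They were KERA, LUM, OGN and FMOD, whose proteins carry keratan sulfate in cornea or other tissue, and DCN, BGN and EPYC, whose proteins carry chondroitin or dermatan sulfate. PRELP and ASPN were placed with neither by this grouping, which is not one of family descent. These made 9 genes. They were chosen by gene name, and all 9 were found among the 29076 genes listed and among the 18171 genes with enough counts to be tested.

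RNA of rabbit cornea was sequenced in 4 groups of 3 libraries. They are labelled blue light, GL, RL and control, with no longer name for GL or RL. All groups share the other labels: rabbits 6 months old on a normal diet, with light exposure over 6 weeks, a text that stands on the control libraries too. Strain, wavelength and intensity are not given there. Nothing states that the 3 libraries of a group came from separate animals, so p-values measure only how far these samples spread, and that spread may be technical.

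Libraries held 40.9 to 64.7 M (mega) deposited counts. Every GL library, at 61.6 to 64.7 M, was deeper than every blue light (40.9 to 58.8 M) and control library (44.4 to 56.9 M). Depth and GL therefore cannot be told apart in comparisons of GL with those groups. Corneal epithelium was present throughout, with the corneal keratins KRT12 at 7739 to 14017 FPKM (fragments per transcript length and library size) and KRT3 at 1693 to 3176 FPKM. A set of 5 libraries stood apart by having more than 2000 genes at counts of 1 to 20, against 767 to 1461 such genes in the other 7. These 5 libraries were all 3 of blue light, RL 1 and control 1, so in blue light this feature and the light cannot be told apart. Retinal genes averaged above 3 on a log2 CPM scale (counts relative to library size) in blue light 1, GL 3 and control 2. Lens genes such as CRYAA, a crystallin, ran from 198 FPKM in RL 1 to 5258 FPKM in blue light 1. In bulk RNA of this kind, fewer stromal cells and less RNA per cell cannot be told apart.

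The 9 genes averaged from 3.08 FPKM (ASPN) to 7229 FPKM (DCN) over the 12 libraries, in much the same order in each group. Levels between genes are given here as FPKM, which is per length. DCN, or decorin, was the most abundant in every library and made up 52.0% ± 3.58 of the summed FPKM of the 9 genes (SD, n = 12). KERA made up 17.0% ± 1.11, LUM 16.9% ± 1.63 and OGN 12.0% ± 3.12. Together those 4 genes held 96.8 to 99.1% of the sum, so FMOD, BGN, EPYC, PRELP and ASPN shared the small rest. In all 4 groups the range of DCN lay above that of the next gene. KERA and LUM overlapped in every group and changed places in RL, where LUM averaged higher. OGN came next in every group, below KERA and LUM without overlap in GL and RL, and overlapping LUM in blue light and control. FMOD followed, overlapping PRELP in blue light and RL. PRELP and BGN overlapped in blue light, RL and control, while in GL every PRELP value lay above every BGN value. EPYC was eighth and ASPN last in each group, and these overlapped in blue light only.

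**Figure D1:**
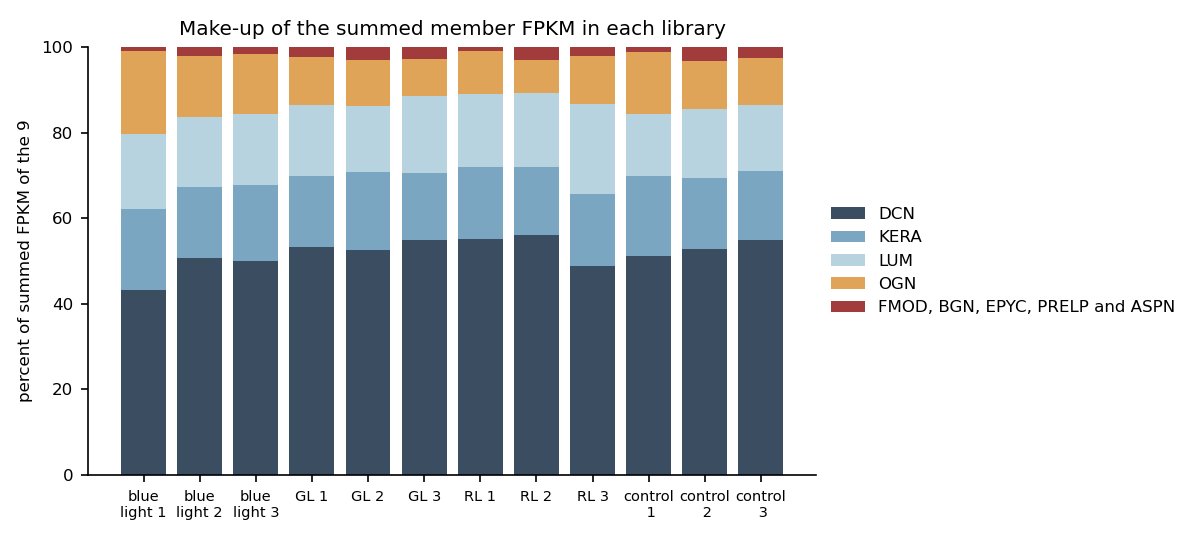
Share of each gene in the summed FPKM of the 9 genes (percent, vertical axis) in each of the 12 libraries, ordered as blue light, GL, RL and control. DCN is the largest block in every bar, from 43.1% in blue light 1 to 56.0% in RL 2, and the 5 lowest genes form a thin top layer.

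The table places these genes in groups, as they are known to lie in other mammals. EPYC, KERA, LUM and DCN follow each other on one sequence and the same strand, with gaps of 47.1, 45.9 and 34.6 kb. OGN, OMD, ASPN and ECM2 follow each other on a second sequence, also on one strand, with gaps of 11.1, 16.3 and 14.4 kb. PRELP lies 2.54 kb from OPTC and 86.4 kb from FMOD, which is on the opposite strand, and BGN lies apart on another sequence. Neighbours did not share a level: EPYC averaged 10.3 ± 4.52 FPKM beside KERA at 2393 ± 555 FPKM, and ASPN averaged 3.08 ± 2.10 FPKM in the same row of genes as OGN at 1720 ± 733 FPKM (SD, n = 12). Some of these genes overlap a gene on the other strand, and no label says whether counting used the strand. KERA overlaps LOC108176669, listed at 0.205 to 5.74 FPKM, and OGN and ASPN lie within CENPP, listed at 0.254 to 1.16 FPKM. The level of CENPP comes close to that of ASPN, which had 1.082 to 8.59 FPKM.

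**Figure D2:**
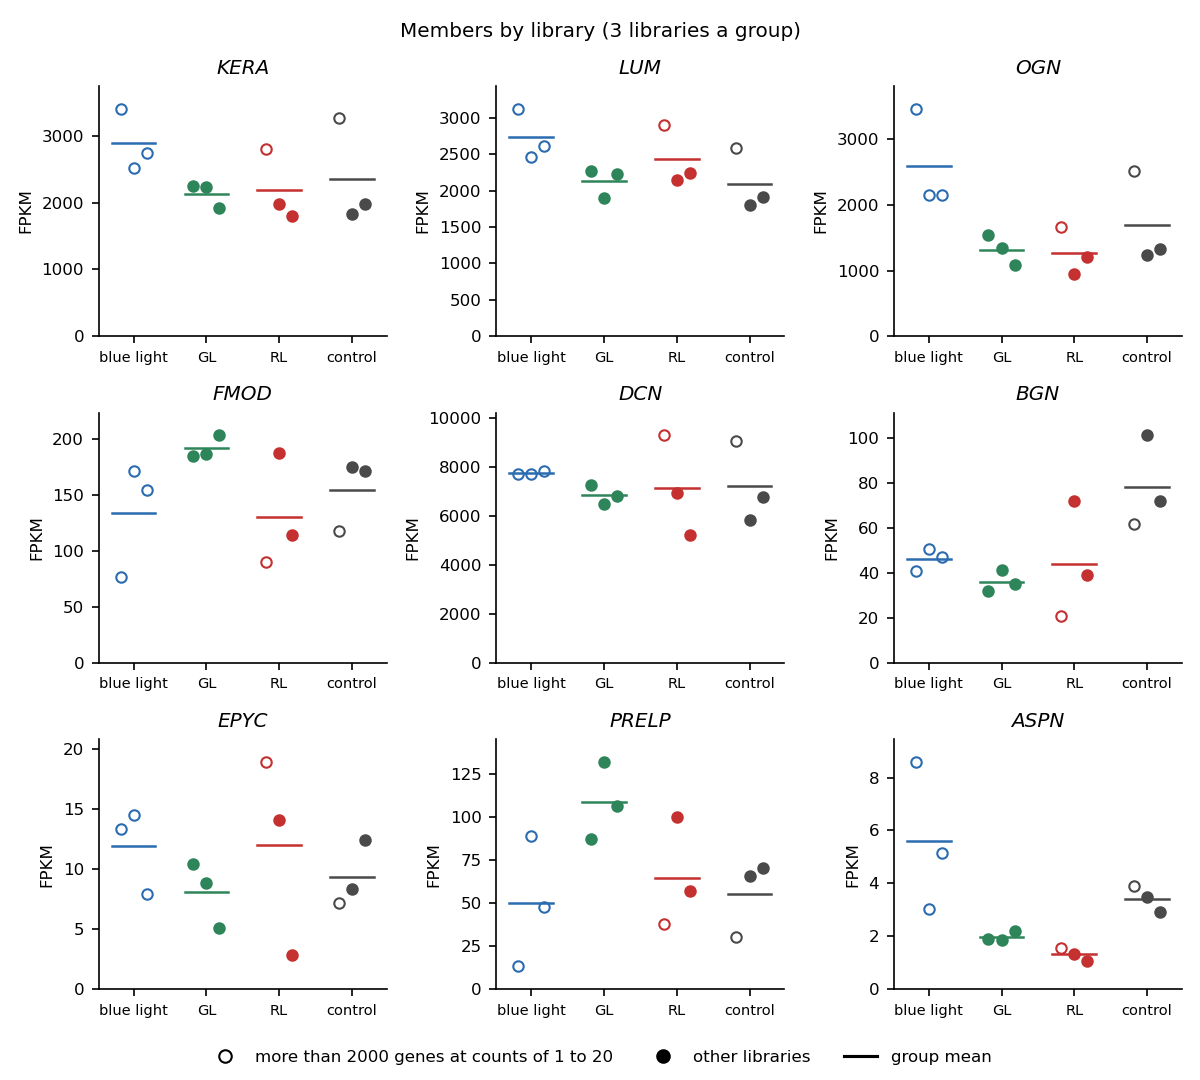
FPKM (vertical axis, from 0) of each of the 9 genes in blue light, GL, RL and control, with 1 point a library and a line at the group mean. Open points are the 5 libraries with more than 2000 genes at counts of 1 to 20, and they are the 5 highest points of KERA, LUM, OGN and DCN.

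Keratocan (KERA, gene 100009022 in the table), the keratan sulfate proteoglycan most restricted to cornea, had 3406, 2518 and 2743 FPKM in blue light, 2246, 2238 and 1914 FPKM in GL, 2803, 1971 and 1799 FPKM in RL, and 3268, 1829 and 1979 FPKM in control. Every blue light library lay above every GL library, whereas each light group overlapped control. The first library of RL and of control stood with blue light, and the others with GL. The difference of blue light minus GL was 0.38 ± 0.23 on the log2 scale (SE; adjusted p = 0.436 by the edgeR quasi-likelihood test, n = 3 each). It turned to −0.25 with a term for the 5 libraries in the fit. Blue light lies wholly within that set and GL wholly outside it. The term is thus estimated from RL 1 and control 1 against the others of their groups, and does not separate set from light.

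Lumican (LUM, gene 100008665), which in mice is needed for a transparent cornea, had 3127, 2461 and 2614 FPKM in blue light, 2268, 1895 and 2224 FPKM in GL, 2902, 2145 and 2243 FPKM in RL, and 2586, 1799 and 1908 FPKM in control. Again the blue light and GL libraries did not overlap, and the light groups overlapped control. The log2 difference of blue light minus GL was 0.30 ± 0.18 (edgeR adjusted p = 0.426), and −0.091 with that term. KERA and LUM kept a near-even level, with KERA at 0.802 to 1.26 times LUM in FPKM over the 12 libraries.

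Osteoglycin (OGN, gene 100008835), also called mimecan and made with keratan sulfate in cornea, had the widest spread of the 4 abundant genes. It had 3469.6, 2149.6 and 2159.7 FPKM in blue light, 1535, 1339 and 1077 FPKM in GL, 1662, 953 and 1200.1 FPKM in RL, and 2519, 1239.6 and 1331 FPKM in control. All 3 blue light libraries lay above all GL and all RL libraries, and control 1 lay among those of blue light. OGN was 0.92 ± 0.29 higher on the log2 scale in blue light than in GL (edgeR adjusted p = 0.255) and 0.96 ± 0.29 higher than in RL (adjusted p = 0.893), neither past the threshold. With a term for the 5 libraries the difference from GL was 0.16 ± 0.30 and that from RL was 0.48 ± 0.26.

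Fibromodulin (FMOD, gene 100008664), a collagen-binding proteoglycan best known from tendon, averaged highest in GL, whereas the other 3 keratan sulfate genes averaged highest in blue light. It had 76.4, 172 and 154 FPKM in blue light, 185, 187 and 203 FPKM in GL, 89.7, 188 and 114 FPKM in RL, and 118, 175 and 171 FPKM in control. All GL libraries lay above all blue light and all control libraries, and RL overlapped every group. The log2 difference of GL minus control was 0.36 ± 0.33 (edgeR adjusted p = 0.783) and that of blue light minus GL was −0.56 ± 0.33 (adjusted p = 0.415). With log2 library size in the fit they turned to −0.23 and 0.056, and with a term for the 5 libraries the second turned to 0.14. The GL difference from control was 0.19 without control 1, and that of blue light minus GL was −0.27 without blue light 1. In all 4 groups replicate 1 held the lowest FMOD and PRELP values and the highest KERA, LUM and OGN values.

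Among the chondroitin and dermatan sulfate genes, DCN (gene 100009171), which binds collagen and TGF-beta, was the steadiest in blue light. It had 7703, 7687 and 7809.9 FPKM in blue light, 7263, 6469 and 6800.1 FPKM in GL, 9275, 6929 and 5188 FPKM in RL, and 9031, 5829 and 6759.8 FPKM in control. The blue light libraries lay within 1.02 times of each other, while RL spread over 1.79 times. Blue light lay above GL without overlap, with a log2 difference of 0.12 ± 0.21 (edgeR adjusted p = 0.832) that turned to −0.40 with the term for the 5 libraries and to −0.14 with log2 library size in the fit.

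Biglycan (BGN, gene 100008663), a close relative of decorin that carries chondroitin or dermatan sulfate chains, averaged lower in each light group than in control. It had 40.7, 50.5 and 47.1 FPKM in blue light, 32.0, 41.1 and 34.9 FPKM in GL, 20.7, 72.2 and 39.1 FPKM in RL, and 61.7, 101 and 71.9 FPKM in control. All blue light and all GL libraries lay below all control libraries, and RL 2 lay within the control range. The log2 difference from control was −0.77 ± 0.36 in blue light (edgeR adjusted p = 1), −1.07 ± 0.36 in GL (adjusted p = 0.553) and −0.76 ± 0.36 in RL (adjusted p = 1), against the same 3 control libraries. With the 3 light groups averaged it was −0.87 ± 0.28 (adjusted p = 1), and 8 of 9 light libraries lay below the lowest control library. None of these passed the threshold. With a term for the 5 libraries the blue light difference was −0.11 ± 0.31 and the GL difference −1.40 ± 0.29. Without the 3 retinal libraries, which include control 2 with the highest BGN, these were −0.42 ± 0.47 and −0.81 ± 0.47. The summed FPKM of 12 lens markers was lower in all GL and RL libraries than in control. BGN and that sum were both lowest of all libraries in RL 1, lowest of GL in GL 1 and highest of control in control 2, whereas blue light 1 held the highest lens sum of all and the lowest BGN of its group. The part of lens in the BGN difference was not tested.

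Epiphycan (EPYC, gene 100356959), a dermatan sulfate proteoglycan known from growth plate cartilage, was detected in every library at an estimated 84.5 to 412 fragments. It had 13.4, 14.6 and 7.92 FPKM in blue light, 10.4, 8.87 and 5.08 FPKM in GL, 18.9, 14.1 and 2.88 FPKM in RL, and 7.19, 8.36 and 12.4 FPKM in control. RL alone held both the lowest and the highest value, and no pair of groups was free of overlap.

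PRELP (gene 100354305), a heparin-binding protein that links collagen to basement membranes, was highest in GL. It had 13.3, 89.3 and 48.0 FPKM in blue light, 87.3, 132 and 107 FPKM in GL, 37.9, 99.9 and 57.1 FPKM in RL, and 30.2, 65.8 and 70.2 FPKM in control. All GL libraries lay above all control libraries, whereas blue light and RL overlapped both. The log2 difference of GL minus control was 1.02 ± 0.56 (edgeR adjusted p = 0.622). It was 0.72 ± 0.27 among the 7 libraries with fewer genes at low counts (adjusted p = 0.430) and 0.30 with log2 library size in the fit. PRELP spanned 6.71-fold over the blue light libraries, the widest span of the 9 genes in any group, and the lowest library of that span, blue light 1, was also the library with the least FMOD and the least COL1A1.

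Asporin (ASPN, gene 103348342), a collagen-binding member with an aspartate-rich start and no typical sugar attachment site, was the lowest of the 9, at an estimated 29.8 to 156 fragments a library. It had 8.59, 3.02 and 5.16 FPKM in blue light, 1.91, 1.86 and 2.18 FPKM in GL, 1.55, 1.34 and 1.082 FPKM in RL, and 3.89, 3.49 and 2.90 FPKM in control. Each RL value lay below each GL value, and each GL value below all blue light and control values, so that only blue light and control overlapped. The log2 difference from control was −1.31 ± 0.37 in RL (edgeR adjusted p = 0.888) and −0.74 ± 0.37 in GL (adjusted p = 0.610). ASPN was 2.0 ± 0.38 higher on the log2 scale in blue light than in RL (adjusted p = 0.222) and 1.43 ± 0.37 higher than in GL (adjusted p = 0.237), and GL was 0.57 ± 0.37 above RL (adjusted p = 0.650). Among the 7 libraries, none of them of blue light, the RL difference from control was −1.32 ± 0.47 (edgeR adjusted p = 0.505). With DESeq2 in place of edgeR, ASPN passed the threshold in blue light against RL (adjusted p = 0.000151) and against GL (0.0173). It also passed by DESeq2 over the 4 groups (adjusted p = 0.000326), whereas edgeR over the 4 groups gave an adjusted p of 0.256. Of the whole table DESeq2 called 88, 447 and 307 genes in these comparisons, and edgeR 2, 9 and 11.

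**Figure D3:**
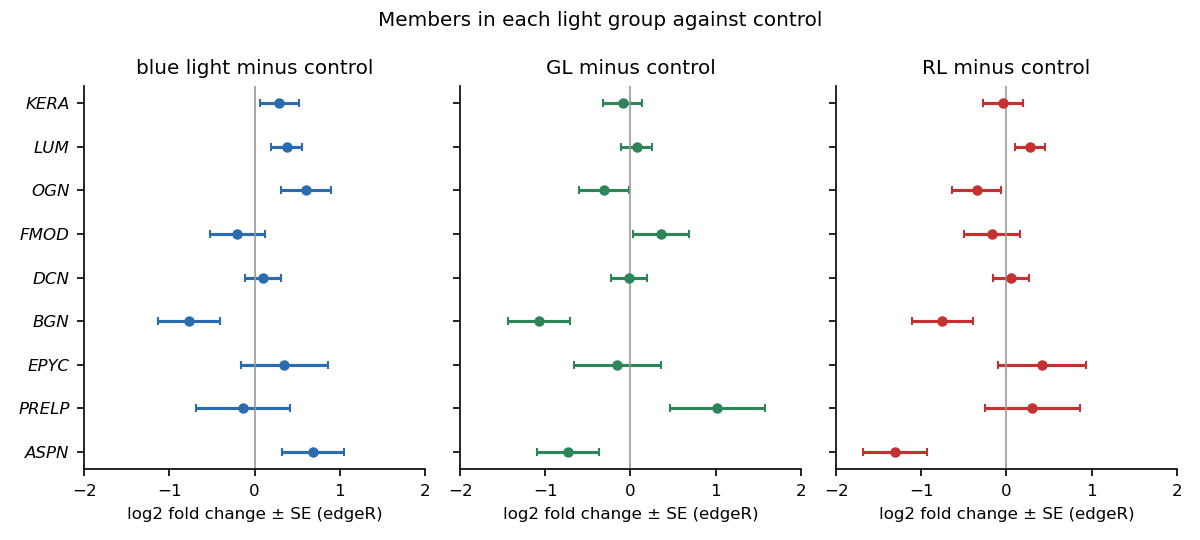
Log2 fold change with its SE from edgeR (horizontal axis) of each gene in blue light, GL and RL, each minus the same 3 control libraries. BGN lies below 0 in all 3 panels, ASPN below 0 in GL and RL, and PRELP above 0 in GL at 1.02; no gene passed the threshold.

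Counted over the 9 genes, no difference passed an adjusted p of 0.05 by edgeR in any of 8 comparisons. Few genes of the whole table did so either: 0.0165% in blue light against control, 0.055% in GL against control, and 0.011% in RL against control and for the mean of the light groups. Between light groups the shares were 0.0495% for blue light against GL, 0.011% for blue light against RL and 0.0715% for GL against RL, and 0.0605% differed among the 4 groups. At an unadjusted p below 0.05 the edgeR fits held BGN in GL, ASPN in RL and BGN for the mean of the light groups, each against control, and OGN and ASPN in blue light against GL and against RL. The test over the 4 groups held OGN, BGN and ASPN at that level. Of all tested genes, 8.1% reached that level in GL against control, 4.74% in RL against control, 4.2% for the light groups averaged, 14.9% in blue light against GL, 5.14% in blue light against RL and 7.79% over the 4 groups. DESeq2 added the 3 calls of ASPN, while limma called none of the 9 genes. Over the whole table DESeq2 called 447 genes in blue light against GL, 88 in blue light against RL and 307 over the 4 groups. By edgeR these were 9, 2 and 11.

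Groups without overlap were set beside the share of all tested genes with no overlap. Blue light and control were apart in 1 gene, BGN, with 9.04% of all genes apart. GL and control were apart in 4 genes, with FMOD and PRELP higher and BGN and ASPN lower in GL, and 18.5% of all genes apart. RL and control were apart in 1 gene, ASPN (8.81% of all genes). Blue light and GL were apart in 6 genes, of which KERA, LUM, OGN, DCN and ASPN were higher and FMOD lower in blue light, where 26.9% of all genes were apart. Blue light and RL were apart in OGN and ASPN (9.36% of all genes), and GL and RL in ASPN (13.4%). The median log2 difference of the 9 genes from control was 0.29 in blue light, −0.091 in GL and −0.041 in RL, beside 0.014, −0.017 and 0.0045 over all tested genes. In blue light 6 of 9 genes lay above 0, in GL 3 of 9 and in RL 4 of 9.

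The 5 libraries with many genes at low counts stood apart in the 4 abundant genes. KERA had 2518 to 3406 FPKM in these 5 and 1799 to 2246 FPKM in the other 7, and LUM had 2461 to 3127 FPKM and 1799 to 2268 FPKM. OGN had 1662 to 3469.6 FPKM in the 5 and 953 to 1535 FPKM in the 7, and DCN 7687 to 9275 FPKM and 5188 to 7263 FPKM. These 4 genes had no overlap between the sets, while FMOD, BGN, EPYC, PRELP and ASPN overlapped. Over all tested genes 4.28% were apart in this way. Within the 5 libraries, RL 1 and control 1 overlapped blue light in KERA and LUM, exceeded it in DCN, and RL 1 lay below it in OGN. With a term for the sets, as given above, blue light minus GL changed sign in KERA, LUM, DCN and FMOD. What sets these libraries apart was not tested.

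**Figure D4:**
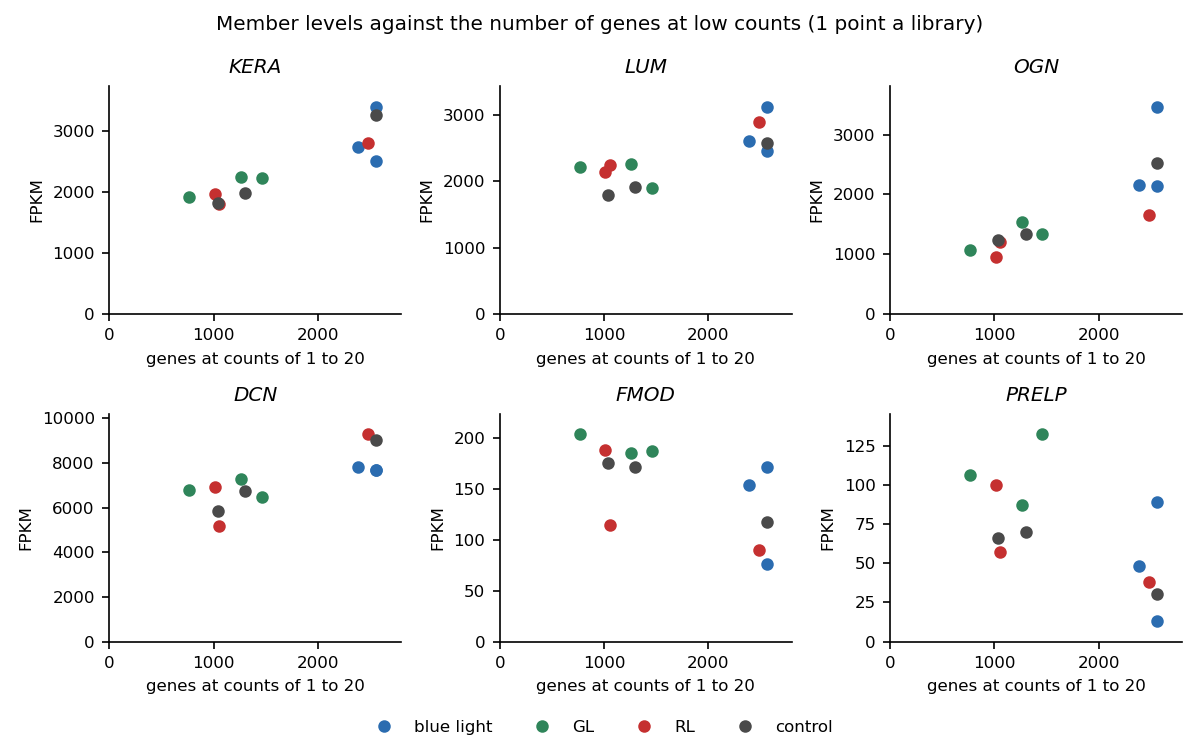
FPKM of KERA, LUM, OGN, DCN, FMOD and PRELP (vertical axes, from 0) against the number of genes at counts of 1 to 20 (horizontal axes), with 1 point a library coloured by group. The 5 libraries above 2000 such genes hold the 5 highest values of KERA, LUM, OGN and DCN, and the lowest values of FMOD and PRELP are also among them.

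Keratan sulfate genes were then set against PRELP and ASPN. For each library the mean log2(FPKM + 1) of PRELP and ASPN was taken from that of KERA, LUM, OGN and FMOD. This difference was 6.32 ± 0.41 in blue light, 5.85 ± 0.22 in GL, 6.32 ± 0.40 in RL and 6.09 ± 0.51 in control (SD, n = 3 each), so the groups lay within 1 SD of control. Set against control it was 0.24 in blue light, −0.24 in GL and 0.23 in RL. The 3 highest libraries were blue light 1 at 6.79, RL 1 at 6.73 and control 1 at 6.67. PRELP and ASPN did not move as a pair. Against PRELP alone the keratan sulfate genes stood at 3.25 ± 0.36 in GL and 4.29 ± 0.90 in control, a difference of −1.04. Against ASPN alone they stood at 8.44 ± 0.15 in GL and 7.88 ± 0.18 in control, a difference of 0.56. In RL the difference from control was −0.34 against PRELP alone and 0.80 against ASPN alone, and in blue light it was 0.69 and −0.21. The combined value therefore averaged opposite differences in each light group. No test was made, since a score over genes chosen with results known gets no p.

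**Figure D5:**
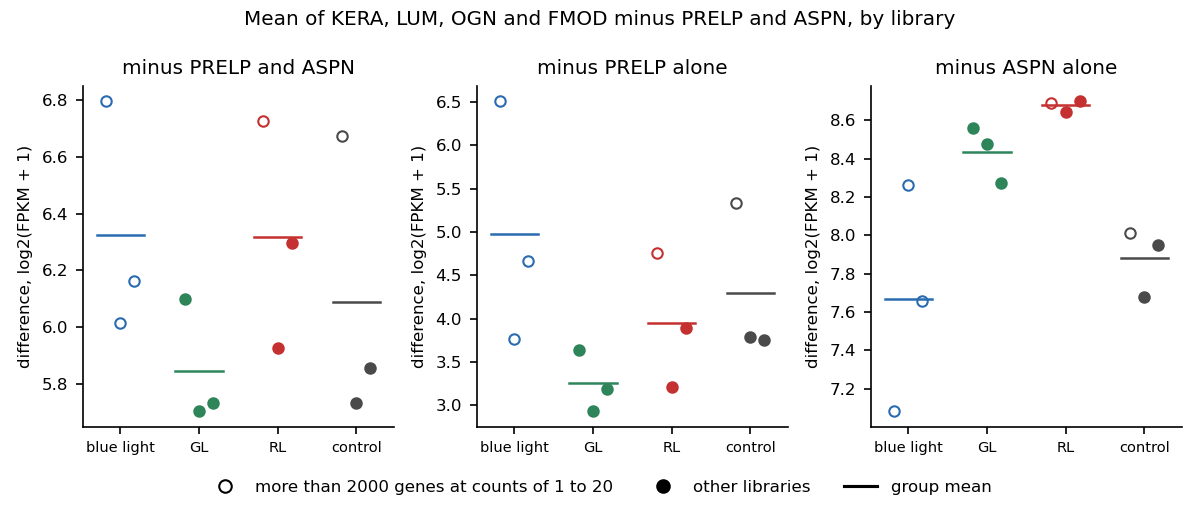
Mean log2(FPKM + 1) of KERA, LUM, OGN and FMOD minus that of PRELP and ASPN together, PRELP alone and ASPN alone (vertical axes, not from 0), with 1 point a library and a line at the group mean. Against ASPN alone RL lies highest at 8.68 ± 0.030 and GL next, both free of overlap with control at 7.88 ± 0.18; against PRELP alone GL has the lowest mean.

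As a share of the summed FPKM of the 9 genes, the keratan sulfate genes held 51.3% ± 4.49 in blue light, 45.2% ± 1.18 in GL, 45.7% ± 4.09 in RL and 45.9% ± 2.20 in control. The sum itself was 16197 ± 1456 FPKM in blue light, 12769 ± 745 in GL, 13276 ± 3180.3 in RL and 13661 ± 3489 in control. OGN took 15.8% ± 3.13 of it in blue light, against 12.1% ± 1.90 in control.

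The enzymes that build keratan sulfate showed no call. Of 17 genes listed, 15 were tested, and 0 were higher or lower in any comparison by edgeR, with 8, 9 and 9 of them above 0 in blue light, GL and RL against control. B3GNT7, which extends the chain, had 66.8 ± 24.8 FPKM in blue light, 87.6 ± 2.17 in GL, 79.5 ± 14.4 in RL and 68.6 ± 15.8 in control. CHST6, the corneal keratan sulfotransferase, had no entry under that symbol; LOC100351319, to which the RefSeq gene table gives that symbol, had 32.7 ± 13.3 FPKM in blue light, 56.2 ± 3.46 in GL, 40.3 ± 10.3 in RL and 35.6 ± 6.58 in control. All GL libraries of LOC100351319 lay above all control libraries, with a log2 difference of 0.71 ± 0.31 (edgeR adjusted p = 0.610). The sulfotransferase CHST2 was 1.29 ± 0.36 higher in GL than in control on the log2 scale (edgeR adjusted p = 0.462). The summed FPKM of the tested list was 410.0 to 449 in GL and 349 to 387 in control, without overlap. Blue light, at 280 to 415, and RL, at 327 to 452, overlapped both.

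Chondroitin and dermatan sulfate enzymes gave a like picture. Of 23 listed, 21 were tested and 0 were called. In GL against control 19 of 21 lay above 0, in RL 12, in blue light 6, and in blue light against GL 1. Over all tested genes the median log2 difference was −0.017 in GL against control and 0.048 in blue light against GL. In those comparisons 18.5% and 26.9% of all tested genes had no overlap between the groups. The summed FPKM of these enzymes was 347 to 387 in GL and 298 to 341 in control. It was 240 to 343 in blue light and 304 to 374 in RL, which overlapped both GL and control. Proteases that cut these proteoglycans, with 14 of 17 tested, also gave 0 calls, and ADAMTS9 was 0.97 ± 0.36, 0.99 ± 0.36 and 0.99 ± 0.36 above control on the log2 scale in blue light, GL and RL (edgeR adjusted p = 1, 0.565 and 1). These differences share the same 3 control libraries. ADAMTS9 was low, at 0.44 ± 0.14 FPKM in control, 0.87 ± 0.34 in blue light, 0.85 ± 0.039 in GL and 0.84 ± 0.18 in RL.

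Other leucine-rich proteoglycans were low. Of 9 listed, 8 were tested and 0 called, and their summed FPKM was 86.4 to 125 in blue light, 97.6 to 136 in GL, 93.2 to 135 in RL and 96.5 to 131 in control. OMD, the keratan sulfate relative between OGN and ASPN, had 26.4 ± 17.3 FPKM in blue light, 18.3 ± 3.88 in GL, 15.0 ± 7.63 in RL and 24.9 ± 3.70 in control. ECM2, beyond ASPN, had 23.03 ± 8.81, 29.8 ± 1.54 and 24.3 ± 4.87 FPKM in blue light, GL and RL, and 27.8 ± 6.52 in control. OPTC, beside PRELP, stayed at or below 2.46 FPKM, and NYX was listed at 0 in all 3 RL libraries, at 0.0527 to 0.183 FPKM in blue light, 0.0641 to 0.340 FPKM in GL and 0.162 to 0.220 FPKM in control.

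Collagens, the partners these proteins bind, had 11 of 11 genes tested and 0 called. COL1A1 had 349 FPKM in blue light 1, the lowest, and 3537 FPKM in RL 2, the highest, and averaged 3039.7 ± 284 FPKM in GL and 1576 ± 559 in control. COL1A2 averaged 4301 ± 246 FPKM in GL and 2791 ± 388 in control. Summed fibrillar collagen was 9616.5 to 10692 FPKM in GL and 5599.9 to 7432 FPKM in control. It was 2772 to 8853 FPKM in blue light and 5669 to 11742 FPKM in RL, which overlapped both GL and control. Of 20 other proteoglycans, 16 were tested and 1 was called: SPOCK2, a testican, was 1.29 ± 0.18 lower in blue light than in GL on the log2 scale (edgeR adjusted p = 0.0205), at 4.51 ± 0.140 FPKM in blue light and 10.6 ± 0.978 FPKM in GL. With a term for the 5 libraries, or without the 3 retinal libraries, 0 genes of the whole table were called in this comparison, so the SPOCK2 call was lost.

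Markers of cell types were set beside these genes, with 0 calls by edgeR in any list or comparison. Keratocyte markers other than the 9 genes summed to 6022 to 8255 FPKM in blue light and 8113 to 8744 in GL. They summed to 7399 to 9328 in RL and 7213 to 7318 in control. In GL against control 8 of 8 tested lay above 0, where the median over all tested genes was −0.017. Of the 9 genes themselves, 3 lay above 0 and 6 below 0 in that comparison. Whether the listed markers are confined to keratocytes was not tested. Corneal epithelium summed to 18464 to 19219 FPKM in GL and 12242 to 17222 in control. It summed to 13180 to 15917 in blue light and 14995 to 20545.5 in RL. Both sums were higher in all GL libraries than in control, as PRELP and FMOD were. In RL every keratocyte sum also lay above every control sum. There the log2 difference from control was −0.17 ± 0.33 for FMOD and 0.30 ± 0.56 for PRELP. The part of these markers in the differences of PRELP and FMOD was not tested. Markers of activated fibroblasts summed to 2937 to 6584 FPKM in blue light, 6474 to 7368 in GL, 4472 to 7407 in RL and 4868 to 6073 in control. Corneal endothelium summed to 663 to 833 FPKM in blue light, 648 to 861 in GL, 553 to 941 in RL and 725 to 1049.6 in control.

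Lists for neighbouring tissue were also summed. Conjunctiva and limbus summed to 104 to 137 FPKM in blue light, 115 to 156 in GL, 136 to 182 in RL and 136 to 187 in control. Markers of cartilage, tendon and other dense tissue, where EPYC, ASPN and FMOD are also expressed, summed to 96.3 to 297 FPKM in blue light, 295 to 336 in GL, 205 to 375 in RL and 186 to 249 in control, with 1 to 3 of 12 genes at 0. The tendon gene THBS4 made up most of that sum on average, and the cartilage collagen COL2A1 had 0.30 to 2.53 FPKM. Muscle, fat and vessel markers summed to 5.41 to 6.02 FPKM in blue light, 9.01 to 9.63 in GL, 5.89 to 7.97 in RL and 6.13 to 29.2 in control. Immune markers summed to 12.5 to 23.6 FPKM in blue light, 21.1 to 31.0 in GL, 18.2 to 36.7 in RL and 16.2 to 22.5 in control. Retinal markers summed to 60.8 FPKM in RL 1 up to 346 FPKM in GL 3. Lens markers summed to 2436 to 18757 FPKM in blue light, 924 to 3762 in GL, 854 to 3337 in RL and 5887 to 9450.1 in control. Lens was thus lower in all GL and RL libraries than in control, as ASPN was. Blue light 2 and 3 had lens sums of 2436 and 2853 FPKM, also below every control library. Their ASPN, at 3.02 and 5.16 FPKM, lay above every GL and RL library. RL 1 held the lowest lens sum of all and the highest ASPN of its group. The part of lens in the ASPN difference was not tested.

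Genes whose pattern over the 12 libraries was most like each of the 9 were found by Pearson's r of log2(CPM + 1) among 8871 genes with a mean of 10 CPM or more. These are descriptions, and the libraries fall into the sets described above. KERA was most like GOLGB1 (r = 0.954), MYZAP (0.931) and ZNF286A (0.917), and LUM like MOCS2 (0.932), ZNF502 (0.932) and NAA16 (0.928). OGN was most like CNGA2 (0.931), GALNT7 (0.929) and FKBP15 (0.928), and DCN like CDC23 (0.945), SEMA6D (0.943) and ZMYM1 (0.928). FMOD was most like RAB11FIP5 (0.923), RNF26 (0.919) and CLIP2 (0.914). PRELP was most like SDC4 (0.944), ACVRL1 (0.937) and CALD1 (0.934). BGN was most like ALKBH1 (0.934), LGSN (0.909) and DKK3 (0.855), and EPYC like APOB (0.887), PIP4K2C (0.885) and GABPB1 (0.851). ASPN, at a mean of 4.99 CPM, lay below the minimum and was not compared.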

How the data were processed

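Per the file headers, the authors deposited 1 table that gives each gene an estimated count and FPKM in each library. Per the labels' protocols, libraries were made from total RNA with a SMARTer mRNA-seq kit. The table lists rabbit sequences, although GRCm38/mm10 (mouse) is what the submitters' processing notes name. Its aligner, counter and build are not given in the sources used, and no coordinates are printed. The deposited counts were whole numbers in which 1 fragment stood for about 3.73 counts, a step estimated from low values, so fragments are approximate. After division by library size, the ratio of count to FPKM of each of the 9 genes varied by about 1.5% between libraries, implying lengths of 1.64 kb (ASPN) to 3.53 kb (PRELP). There are no molecular identifiers, so copies of a fragment cannot be told from separate fragments. Errors come from the spread between libraries and do not cover losses shared by all of them.

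Counts were tested with edgeR 4.0.16 (R 4.3.3) quasi-likelihood fits: TMM scaling (0.944 to 1.06), filterByExpr, 4 group means over all 12 libraries, and Benjamini-Hochberg adjustment over 18171 genes at 0.05. The biological coefficient of variation was 0.578. Alternatives used DESeq2 1.42.0, limma 3.58.1, other scaling, filters and covariates, a replicate block, and omission of libraries. The edgeR fit was tested on simulated counts with known changes and no library sets. That test does not show what size of difference could be found in these data. Levels were described in FPKM, with a pseudocount of 1 on log scales. All 9 genes were described; of each list, up to 3 genes with the smallest p over the 4 groups could be named, and of other genes a fixed set and the 3 most alike. KRT13 and CHST5, in that set, had no entry by that symbol. The genes and lists were chosen with earlier results of these data known.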

Additional observations from a re-analysis of the deposited data

How the results depend on the processing

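The count of called genes among the 9 stayed at 0 in 198 of 201 combinations of comparison and other setting; the 3 others were DESeq2, with 1 (ASPN) in blue light against GL, 1 in blue light against RL and 1 over the 4 groups. By edgeR or limma the lowest adjusted p of any of the 9 genes under any setting was 0.0956. Over the whole table the counts depended on the setting: 3 genes were called in blue light against control (1 to 10 in other settings, 34 by DESeq2), 10 in GL (1 to 28, 182), 2 in RL (1 to 9, 88) and 2 for the mean of light groups (1 to 9, 64), all against control. Between light groups they were 9 for blue light against GL (0 to 22, 447), 2 for blue light against RL (1 to 6, 88) and 13 for GL against RL (2 to 25, 238), and 11 over the 4 groups (0 to 25, 307).

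Signs turned in blue light against GL with a term for the 5 libraries (KERA −0.25, LUM −0.091, DCN −0.40, FMOD 0.14) and with log2 library size as a covariate (DCN −0.14, FMOD 0.056), and in GL against control with library size (FMOD −0.23). The term for the 5 libraries rests on RL 1 and control 1 alone, and depth was higher in every GL library than in blue light or control. The cause of these turns was not tested. The differences of BGN, PRELP, OGN and ASPN given with their tests kept their sign under every setting in which the gene was tested. BGN ran in GL from −1.71 to −0.81 and in RL from −1.33 to −0.41. PRELP ran in GL from 0.30 to 1.22, and ASPN in RL from −1.42 to −0.93. ASPN, averaging 3.08 FPKM, was absent under the filter at a mean FPKM of 5, so the counts of 0 there leave it out. The keratan sulfate difference from control depended on its reference: in GL it was −1.04 against PRELP alone and 0.56 against ASPN alone, and in RL −0.34 and 0.80. In GL it was −0.24 with all libraries, and −0.42 to 0.051 with 1 library left out, 0.051 being without control 1. In blue light leaving out 1 library gave 0.0022 to 0.53 and in RL 0.025 to 0.52. Without the retinal libraries the blue light value turned to −0.18, and with pseudocount 5 the RL value turned to −0.019.

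The replicate numbers were not taken to pair the samples: of 18 same-numbered pairs, 5 had deviations correlated above 0.1 (−0.089 to 0.34). The 6 pairs of replicate 1 were all above 0 (0.012 to 0.34), 4 of them above 0.1. With the replicate number as a block, 0 of the 9 genes were called in any comparison, and BGN in GL against control was −1.04. The alternatives with a term for the 5 libraries, with the 7 libraries alone, without the retinal libraries and with counts divided by 3.73 were chosen after seeing the data. ASPN, at 29.8 to 156 estimated fragments, is the gene that depth limits most.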
